A study of Mus musculus with 6 samples.

Results

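The 6 genes described here encode, or act with, proteins of the subcortical maternal complex and the cytoplasmic lattices of the mouse oocyte. They were chosen by name: Tle6, Ooep, Khdc3, Zbed3, Padi6 and Npm2. All 6 were among the 23284 gene symbols of the files, Khdc3 under its older symbol 2410004A20Rik, and all 6 passed the filter on low counts. RNA was sequenced from germinal vesicle oocytes, which rest in prophase of meiosis with an intact nucleus. The females were 4 to 6 weeks old and had received, 48 hours earlier, a 5 IU dose of the hormone PMSG (pregnant mare serum gonadotrophin). The Lsd1 KO group had 3 samples and the Control group 3 samples, each of 100 oocytes on a mixed C57BL/6-129 background. Both groups received the hormone. Lsd1, listed as Kdm1a, encodes a histone lysine demethylase. The sources used here do not give the allele and Cre driver behind the deletion, the genotype of the control females, or whether oocytes of several females were pooled.

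The subcortical maternal complex is an assembly of maternal proteins that gathers beneath the egg membrane in growing oocytes and stays with the outer cells of the early embryo. In mice its known components include NLRP5, TLE6, OOEP, KHDC3 and ZBED3, and embryos of females that lack NLRP5, TLE6 or OOEP stop at early cleavage. The cytoplasmic lattices are fibrous stores that fill the egg cytoplasm, need PADI6 to form and hold proteins of the complex. NPM2 differs from the others in that it is a nuclear histone chaperone of the oocyte, needed for the organisation of the nucleolus and of chromatin around fertilisation.

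The windows before the transcription starts are shown because FIGLA and NOBOX, oocyte transcription factors, are known regulators of oocyte genes, and because all 6 genes are abundant in these oocytes. RefSeq windows on GRCm38.p6 were matched for 5 of the 6 genes, and none was matched for Npm2. Each line gives the 250 bases before the first listed start, 5′ to 3′ on the gene's strand, for 4 genes. Capitals mark CACCTG on either strand (CAGGTG), the core of the E-box type that FIGLA binds, and TAATTG on either strand (CAATTA), a form of the NOBOX element. Zbed3, on the plus strand, is the gene that rose (chr13:95323355-95323604). Padi6 (chr4:140742644-140742893) and Ooep (chr9:78378589-78378838) are on the minus strand, and Khdc3 (chr9:73102148-73102397) is on the plus strand.
Zbed3: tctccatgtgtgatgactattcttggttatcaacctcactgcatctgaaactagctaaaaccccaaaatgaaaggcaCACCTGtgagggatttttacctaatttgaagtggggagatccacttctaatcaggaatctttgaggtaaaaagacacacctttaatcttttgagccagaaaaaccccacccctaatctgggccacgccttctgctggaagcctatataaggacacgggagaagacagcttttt
Padi6: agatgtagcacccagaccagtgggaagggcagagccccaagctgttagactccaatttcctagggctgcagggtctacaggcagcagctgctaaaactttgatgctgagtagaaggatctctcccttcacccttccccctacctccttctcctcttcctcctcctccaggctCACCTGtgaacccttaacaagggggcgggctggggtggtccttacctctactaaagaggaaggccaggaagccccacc
Khdc3: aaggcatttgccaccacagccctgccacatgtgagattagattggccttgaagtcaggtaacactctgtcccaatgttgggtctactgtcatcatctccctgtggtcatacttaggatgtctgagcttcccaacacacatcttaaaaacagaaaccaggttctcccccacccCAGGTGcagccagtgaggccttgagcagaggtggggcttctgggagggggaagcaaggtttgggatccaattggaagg
Ooep: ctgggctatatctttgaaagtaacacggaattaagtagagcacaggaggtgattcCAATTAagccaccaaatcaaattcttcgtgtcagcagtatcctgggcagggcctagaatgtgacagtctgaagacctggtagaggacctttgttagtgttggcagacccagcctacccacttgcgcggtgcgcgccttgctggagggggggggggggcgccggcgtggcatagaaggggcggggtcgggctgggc

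The letters CACCTG stood in the windows of Zbed3, Padi6 and Khdc3, and were in 17.1% of the first listed windows of all 27025 genes. In Zbed3 the match began 173 bases before the start, and in both Padi6 and Khdc3 it began 78 bases before the start. The letters TAATTG stood in the Ooep window alone among these 5 genes, 195 bases before the start, and in 7.34% of windows of all genes. The exact letters TATAAA, a form of the TATA box, stood in none of the first listed windows of these 5 genes, against 13% of all genes. Variant forms were not sought, and the first Zbed3 window holds the similar letters tatataag near its end. Whether a gene here has a TATA box was thus not settled. The window of the second listed Zbed3 start held CACCTG, 62 bases before that start, and the TATA letters on the other strand. That of the third listed Zbed3 start held none of the 3 motifs. Neither of the 2 listed windows of Tle6 held any of the 3 motifs. The gene that rose and 2 that did not pass the test thus shared the same letters, and these matches are a description of these windows alone.

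Positions are on mm9, the build named in the submitters' processing notes, from the GENCODE M1 annotation. Zbed3 lies on chromosome 13 from 96095192 to 96107796 on the plus strand, with 2 exons, and holds 2 snoRNA genes. Of these, Snora47 is in the files, with 3 to 13 counts per library. RefSeq lists 3 starts for Zbed3, and matched to mm9 they lie at -1632, -412 and 1530 bases from the GENCODE start. The RefSeq start of Khdc3 lies 562 bases after its GENCODE start, so the printed Khdc3 window is inside the gene as GENCODE places it. That of Ooep lies 137 bases after, so part of the Ooep window is inside too, and the 2 sources give Padi6 the same start. Khdc3 lies on chromosome 9 from 72949643 to 72952250, where Gm20509, no symbol of the files, overlaps it on the same strand. Ooep, on the same chromosome from 78223916 to 78226532, Tle6 on chromosome 10 from 81053649 to 81063818, and Npm2 on chromosome 14 from 71047109 to 71052891 are on the minus strand. Padi6 is on chromosome 4 from 140283270 to 140298558, the chromosome of the deleted Kdm1a, with 4.12 Mb and 54 protein-coding genes between them. The search for stretches of at least 90% identity elsewhere in the genome joined the bases covered within windows of 20000 bases. The greatest cover was 946 of 2015 bases for the Tle6 transcript on chromosome 12 and 455 of 1894 bases for Zbed3 on chromosome 6. The sources used here do not say how reads from such stretches were assigned. No such stretch was found for Khdc3, Padi6 or Npm2. Ooep had 10720 short matches elsewhere, covering up to 187 of its 2138 bases in any window.

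The libraries held 10735422 to 13035045 counts in genes. Over all genes, Control replicate 3 stood apart on the second principal component (15.2% of the variance) and Lsd1 KO replicate 2 on the third (14.8%). Kdm1a stood at 3.77, 2.80 and 3.23 CPM in Lsd1 KO, against 73.9, 72.5 and 44.4 CPM in Control, so each library carried the level of its label (log2 fold change -4.28 ± 0.27, SE; edgeR adjusted p = 4.58e-06). CPM, the counts of a gene relative to the library total, is scaled throughout by the trimmed mean of M values (TMM). All 11 oocyte markers were tested, and their summed level was 28912 to 33228 CPM in Lsd1 KO, against 19274 to 21941 CPM in Control. Of these, 2 were higher, 1 was lower and 8 were not called, with a median log2 fold change of -0.21. Gdf9, a growth factor of the oocyte, had the greatest part in the sum, with 15558 CPM in Lsd1 KO, against 6057 CPM in Control. The summed level of 12 granulosa and cumulus markers was 368 to 469 CPM in Lsd1 KO, against 128 to 150.3 CPM in Control. In Lsd1 KO most of it was Cyp19a1, the aromatase, at 324 ± 82.8 CPM in Lsd1 KO, against 36.8 CPM in Control (SD, n = 3), where the libraries held 28.6 to 49.2 CPM. Nr5a2, the most abundant of the list in Control, averaged 28.7 CPM in Lsd1 KO, against 69.4 CPM in Control. Ptx3 had 2 counts in Control replicate 1 and none in any other library. Of the 9 tested markers in that list, 2 were higher and 1 was lower. Inha was the other marker called higher, at 28.6 CPM in Lsd1 KO, against 11.2 CPM in Control, with groups that overlapped. Of those not called, Fshr, Foxl2, Inhba, Hsd17b1 and Wt1 had positive log2 fold changes and Kitl a negative one. The 10 immune markers, led by C1qb and Lyz2, summed to 35.2 to 175 CPM in Lsd1 KO, against 25.4 to 66.7 CPM in Control, with 1 of 9 tested higher. The 6 theca markers, led by Hsd3b1 and Cyp11a1, summed to 11.2 to 42.7 CPM in Lsd1 KO, against 8.85 to 14.4 CPM in Control, with none of 3 tested called. The 5 endothelial markers, led by Pecam1 and Tek, summed to 103 to 122 CPM in Lsd1 KO, against 69.2 to 86.2 CPM in Control, with 1 of 3 tested higher. Of the 5 red blood cell markers, 4 globin genes had no count in any library and Alas2, a haem synthesis enzyme, was below the filter. Over all genes tested, 21.3% were called, 11% as higher and 10.3% as lower, with a median log2 fold change of -0.01. The median was 1.20 for the granulosa and cumulus markers tested and 1.71 for the immune markers tested. It was 0.51 for the theca and 0.58 for the endothelial markers tested. The part of these other cells in the results below was not tested.

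Of the 6 genes, 1 was higher in Lsd1 KO oocytes, none was lower and 5 did not pass the test. The gene that rose was Zbed3, which nearly doubled. Over all 12935 genes tested, 21.3% were called in either direction, 11% as higher and 10.3% as lower, so 1 call among 6 genes is near the share of all genes. The median log2 fold change of the 6 genes was 0.24, and that of all genes tested was -0.01. Among the 713 genes at least as abundant as the least abundant of the 6, 52 were higher and 107 lower. Every adjusted p below is from edgeR's quasi-likelihood test of Lsd1 KO against Control, adjusted over all genes tested, and fold changes are Lsd1 KO over Control. With 100 oocytes in each sample, fewer oocytes holding a transcript and less of it in every oocyte cannot be told apart. Values are relative to the other transcripts of a library.

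Zbed3 encodes a zinc-finger protein of the BED type, known as a binding partner of Axin in Wnt signalling and as a component of the complex. Its level was 15869.7, 11882 and 12755 CPM in the 3 Lsd1 KO libraries and 5687, 6482 and 8430.2 CPM in the 3 Control libraries. All 3 Lsd1 KO libraries lay above all 3 Control libraries, and the groups did not overlap. These rest on 197948, 131738 and 142077 counts in Lsd1 KO, against 61497, 86048 and 93333 counts in Control. The log2 fold change was 0.98 ± 0.20 (SE; adjusted p = 0.00602), a 1.97-fold difference with a 95% interval of 0.53 to 1.42 on the log2 scale. Groups without overlap were seen for 38.7% of all genes tested, and for Zbed3 alone among the 6. With 1 library left out the log2 fold change of Zbed3 ran from 0.83 to 1.14 with adjusted p up to 0.0334, and it passed in each of these fits.

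**Figure D1:**
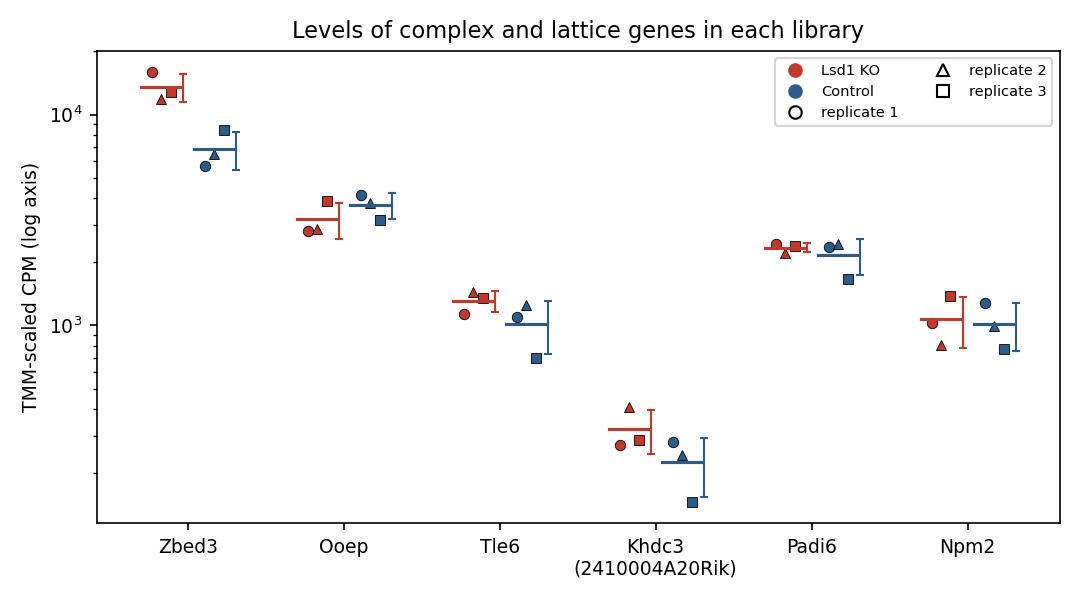
TMM-scaled CPM (log axis) of the 6 genes in every library, with Lsd1 KO in red left of Control in blue. Points are libraries, with a symbol for each replicate number, horizontal lines are group means and bars are SD (n = 3 each). For Zbed3 every Lsd1 KO library, at 11882 CPM or more, lies above every Control library, at 8430.2 CPM or less, and for the other 5 genes the groups overlap.

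The core of the complex gave no call. Ooep, a small protein with a KH-like RNA-binding fold, was at 2810.2, 2857 and 3894 CPM in Lsd1 KO, against 4163, 3826 and 3166 CPM in Control. Lsd1 KO replicate 3 lay among the Control libraries and the groups overlapped (log2 fold change -0.22 ± 0.20, adjusted p = 0.447, 95% interval -0.65 to 0.20). Tle6, a relative of the Groucho corepressors that the complex needs in the zygote, was at 1138, 1436 and 1347 CPM in Lsd1 KO, against 1094, 1252 and 703 CPM in Control. The low value was that of Control replicate 3, and the groups overlapped (log2 fold change 0.36 ± 0.22, adjusted p = 0.259, interval -0.11 to 0.84). Khdc3, also called Filia, a KH-domain protein linked to genome stability in early mouse embryos, was at 272, 409 and 286 CPM in Lsd1 KO, against 281, 244 and 146 CPM in Control. Lsd1 KO replicate 2 was high and Control replicate 3 low, and the other 4 libraries lay between 244 and 286 CPM. Its log2 fold change was 0.53 ± 0.25 with an interval of -0.01 to 1.06 (adjusted p = 0.148). These intervals include differences in either direction, and a p above the threshold does not show that a level was the same in both groups.

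Padi6 and Npm2 had the smallest differences. Padi6, of the peptidylarginine deiminase family and needed for the lattices, was at 2432, 2208 and 2367 CPM in Lsd1 KO, against 2348, 2439 and 1664 CPM in Control. Apart from Control replicate 3 the libraries lay between 2208 and 2439 CPM, whatever the genotype (log2 fold change 0.12 ± 0.19, adjusted p = 0.691, interval -0.29 to 0.53). Npm2 was at 1022, 809 and 1384 CPM in Lsd1 KO, against 1284, 992 and 772 CPM in Control. Both groups spread over a similar range for this gene (log2 fold change 0.08 ± 0.24, adjusted p = 0.845, interval -0.43 to 0.59). The sign for Padi6 turned without Control replicate 3 (-0.05) and with the length and GC correction (-0.11). The sign for Npm2 turned in 3 of 15 settings, and no direction is given for either gene.

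**Figure D2:**
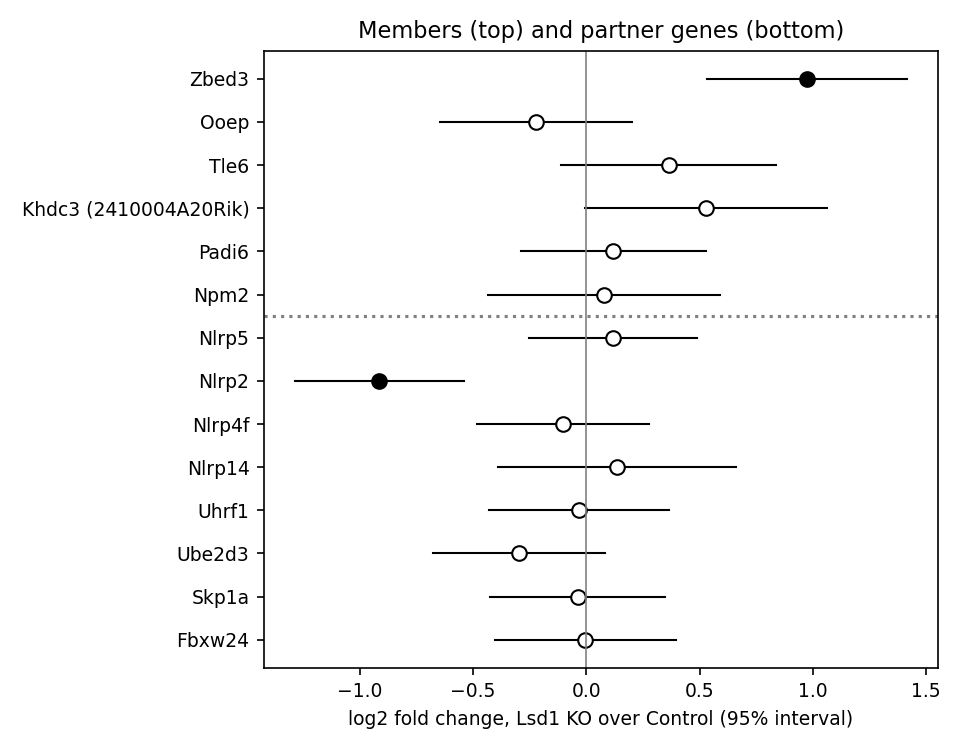
Log2 fold change, Lsd1 KO over Control, with its 95% interval, for the 6 genes (top) and 8 partner genes (bottom). Filled points passed an edgeR adjusted p of 0.05. Zbed3 at 0.98 and Nlrp2 at -0.91 are the filled points, and the intervals of the other genes include 0.

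In both genotypes the order of the 6 genes was the same on CPM per kilobase of annotated exon, the scale used here to compare genes. Zbed3 was first, at 7129 ± 1107 in Lsd1 KO and 3625 ± 745 in Control (CPM per kb, SD, n = 3 each). Ooep followed at 1491 ± 286 in Lsd1 KO and 1739 ± 237 in Control. Npm2 had 1075 ± 292 in Lsd1 KO, against 1019 ± 258 in Control. Padi6 had 922 ± 45.5 in Lsd1 KO, against 849 ± 167 in Control. Tle6 stood lower, with 423 ± 49.5 in Lsd1 KO and 329 ± 91.5 in Control, and Khdc3 last, with 157 ± 36.8 in Lsd1 KO and 109 ± 34.1 in Control. The libraries of Npm2 and Padi6 overlapped in both groups, so these neighbours did not differ beyond their spread. Those of Ooep and Npm2 overlapped in Lsd1 KO when taken across libraries, while Ooep lay above Npm2 within each library. Zbed3 lay above Ooep, Padi6 above Tle6 and Tle6 above Khdc3 in every library of either group. Among 20098 protein-coding genes with a position, Zbed3 ranked 3 in Lsd1 KO and 2 in Control on this scale. Ooep ranked 14 and 10, Npm2 23 and 22, and Padi6 30 and 29, while Tle6 ranked 89 and 130 and Khdc3 325 and 508, each given for Lsd1 KO and then Control. The length of the longest transcript in place of all exons left the order as it was and put Tle6 at 649 CPM per kb in Lsd1 KO and 504 in Control. The part of the near copies of Tle6 and Zbed3, and of the gene overlapping Khdc3, in this order was not tested.

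**Figure D3:**
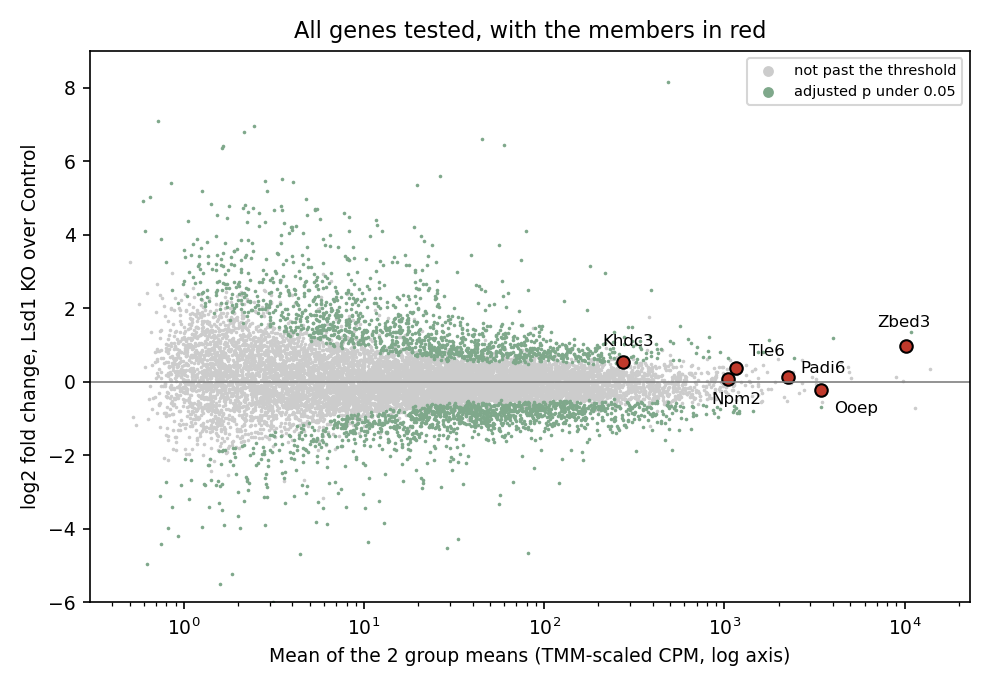
Log2 fold change against mean level (log axis, TMM-scaled CPM) for all 12935 genes tested, with the 6 genes in red. Genes with an edgeR adjusted p under 0.05 are green and the others grey. The 6 genes sit at the abundant end, and Zbed3, at 0.98, is the one farthest from 0.

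Together the 6 genes took 2.38%, 1.92% and 2.28% of the counts in Lsd1 KO libraries and 1.5%, 1.55% and 1.40% in Control libraries. The exact (Clopper-Pearson) 95% intervals are narrow, as from 1.92% to 1.93% for Lsd1 KO replicate 2 and from 1.39% to 1.41% for Control replicate 3, and cover counting error only. The mean share was 2.19% ± 0.241 in Lsd1 KO and 1.48% ± 0.0768 in Control (SD, n = 3 each). Without Zbed3 the other 5 genes took 0.831% ± 0.112 in Lsd1 KO and 0.807% ± 0.174 in Control, so the difference in the sum lay in Zbed3. On counts per kilobase, Zbed3 made up 63.5% ± 5.02 of the 6 genes in Lsd1 KO and 47.3% ± 9.74 in Control, and Ooep 13.4% ± 2.55 in Lsd1 KO and 22.7% ± 3.09 in Control. As a ratio within a library, Zbed3 stood above the geometric mean of the other 5 by log2 3.77, 3.25 and 3.21 in Lsd1 KO and by 2.12, 2.40 and 3.33 in Control. On that ratio Control replicate 3 lay among the Lsd1 KO libraries and the groups overlapped, unlike on the level itself.

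**Figure D4:**
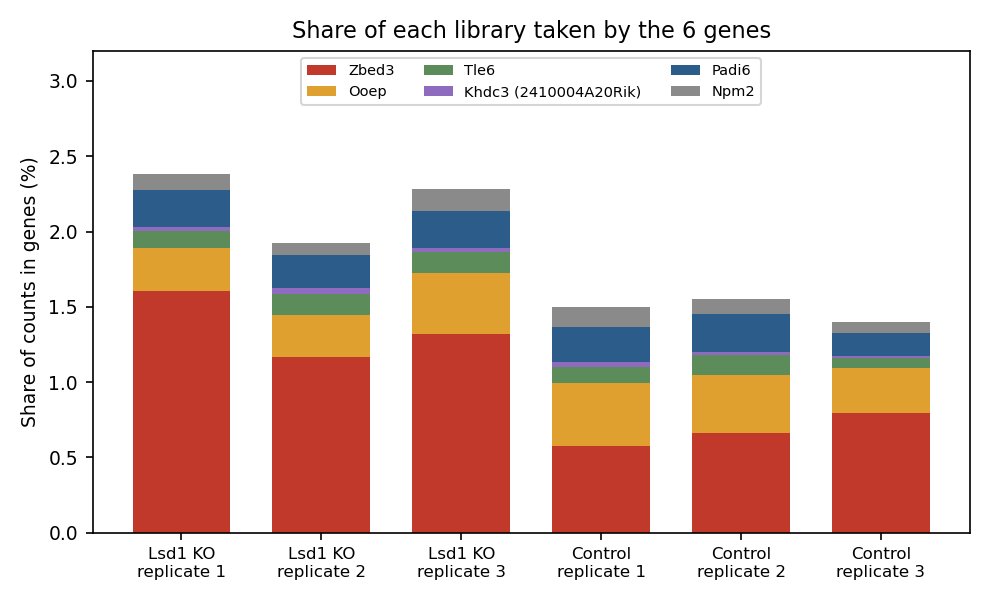
Share of the counts in genes (%) taken by each of the 6 genes, stacked, in the 3 Lsd1 KO libraries (left) and the 3 Control libraries (right). The stacks reach 1.92% to 2.38% in Lsd1 KO and 1.40% to 1.55% in Control, and the red segment, Zbed3, is 1.17% to 1.60% in Lsd1 KO and 0.573% to 0.793% in Control.

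Control replicate 3 stood apart for these genes. It was the lowest of the 3 Control libraries for Tle6, Ooep, Khdc3, Padi6 and Npm2, and the highest for Zbed3. Without it the log2 fold changes were 1.14 for Zbed3 (adjusted p = 0.00303), -0.34 for Ooep, 0.14 for Tle6, 0.28 for Khdc3, -0.05 for Padi6 and -0.10 for Npm2. The last 5 did not pass, with adjusted p of 0.226 to 0.860. In the Lsd1 KO group no library was low for all: replicate 1 was highest for Zbed3 and Padi6, replicate 2 for Tle6 and Khdc3, and replicate 3 for Ooep and Npm2.

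**Figure D5:**
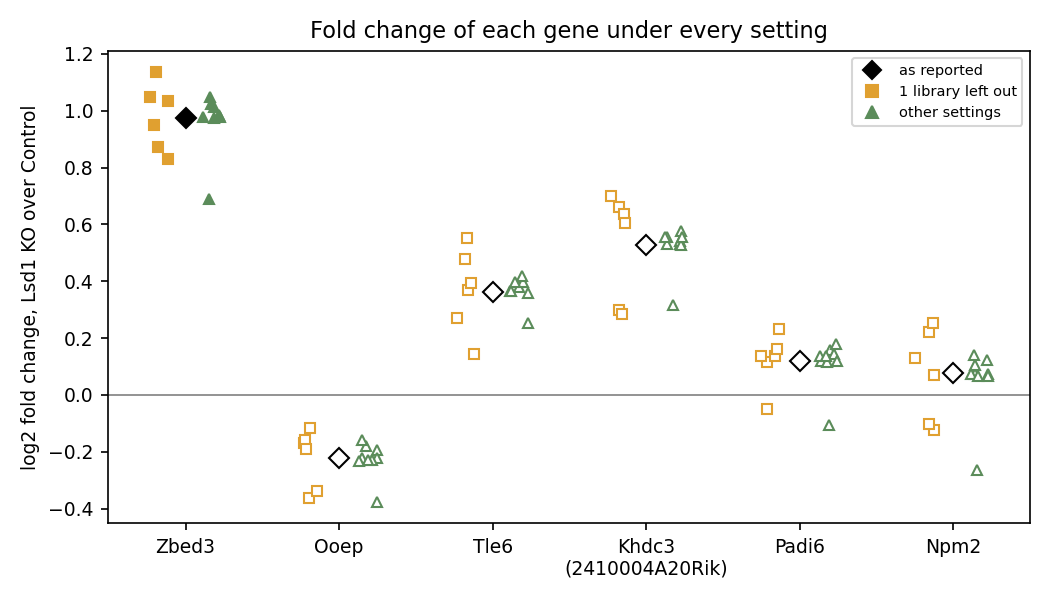
Log2 fold change, Lsd1 KO over Control, of each of the 6 genes as reported (diamond), with 1 library left out (squares, 6 fits) and under 9 other settings (triangles). Filled symbols have an adjusted p under 0.05. Zbed3 lies between 0.69 and 1.14 and is filled throughout, and the other 5 genes have open symbols throughout.

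The genes with the nearest pattern were found by the root mean square difference of log2 CPM, centred on each gene's mean, over the 6 libraries. Nearest to Zbed3 were Chrng (0.04), an acetylcholine receptor subunit, Clspn (0.06), the checkpoint protein claspin, and Ddb1 (0.06), a subunit of a cullin ubiquitin ligase. Clspn averaged 158 CPM in Lsd1 KO, against 75.3 CPM in Control, and Ddb1 552 CPM in Lsd1 KO, against 297 CPM in Control. Nearest to Khdc3 were the ubiquitin hydrolase Uchl1 (0.06), itself a maternal-effect gene, Aldh4a1 (0.07) and Slc25a39 (0.13). Nearest to Tle6 were Pecr, Mtch1 and Nomo1, to Ooep Fam92a, Zfp330 and Slc25a5, to Padi6 Hsd17b13, Sec13 and Pdk3, and to Npm2 Pcsk6, Psmg4 and Rpl12, at 0.02 to 0.10. Bare gene models were not candidates, nor was Khdc3 under its older symbol. None of the other 5 genes was among the 3 nearest of any of the 6. The closest pair among them was Tle6 and Khdc3, at 0.19. Of 8157 genes, with the gene models kept, Tle6 was the 26th nearest to Khdc3 and Khdc3 the 142nd nearest to Tle6. Zbed3 was the farthest from each of the other 5, at 0.55 to 0.71.

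The partners of the complex and the lattices gave 1 lower, none higher and 7 not called of 8 tested, where 21.3% of all genes were called, with a median log2 fold change of -0.03. The gene that fell was Nlrp2, a maternal-effect NLR-family gene, at 252, 330.1 and 269 CPM in Lsd1 KO, against 517, 555 and 532 CPM in Control. Its groups did not overlap (log2 fold change -0.91 ± 0.17, adjusted p = 0.00349). Nlrp5, which encodes MATER, a founding component of the complex, averaged 3203 ± 151 CPM in Lsd1 KO, against 2953 ± 351 CPM in Control (log2 fold change 0.12 ± 0.17, adjusted p = 0.665, interval -0.26 to 0.49). Nlrp4f had 731 ± 106 CPM in Lsd1 KO, against 785 ± 46.1 CPM in Control. Nlrp14 was the most abundant partner in CPM and per kilobase, at 2568 CPM per kb in Lsd1 KO and 2339.6 in Control, and like Tle6 it was lowest in Control replicate 3. Uhrf1, a reader of hemimethylated DNA held in the egg cytoplasm, averaged 499 ± 89.7 CPM in Lsd1 KO, against 510.0 ± 52.7 CPM in Control. The ubiquitin-conjugating enzyme Ube2d3 averaged 2336 ± 274 CPM in Lsd1 KO, against 2870.1 ± 240.3 CPM in Control, with groups that did not overlap (log2 fold change -0.30 ± 0.18, adjusted p = 0.249). The ubiquitin ligase subunits Skp1a and Fbxw24 had log2 fold changes of -0.04 and -0.01. Zbed3 and Nlrp2 thus passed in opposite directions, and differences between genes in their change were not tested.

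Among 18 relatives of the 6 genes, 14 were tested, of which 1 was higher, 2 were lower and 11 did not pass, with a median log2 fold change of -0.22, against -0.01 over all genes. These 3 calls among 14 genes are near the 21.3% of all genes. Aes, the short Groucho-family relative of Tle6, rose to 16.8 ± 1.81 CPM in Lsd1 KO, against 7.75 ± 1.32 CPM in Control (log2 fold change 1.12 ± 0.27, adjusted p = 0.0119). Tle4, a full-length Groucho corepressor, fell to 106 ± 6.49 CPM in Lsd1 KO, against 158 ± 28.8 CPM in Control (-0.58 ± 0.18, adjusted p = 0.0384), and Zbed5, listed as 2410018M08Rik, fell to 6.84 ± 2.06 CPM in Lsd1 KO, against 13.4 ± 0.581 CPM in Control (-0.97 ± 0.30, adjusted p = 0.0375). Tle4 kept the call in 6 of 15 other settings and lost it with any 1 library left out other than Control replicate 3 (adjusted p up to 0.186). Zbed5 kept it in 9 and lost it with any 1 library left out other than Lsd1 KO replicate 2 (adjusted p up to 0.143). No gene of the PADI, nucleophosmin or KHDC1 families passed.

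Of 8 transcription regulators of the oocyte, 7 were tested, with 2 lower, none higher and 5 not called, and a median log2 fold change of -0.57, against -0.01 over all genes. Of all genes, 21.3% were called in either direction and 10.3% as lower. Taf4b, an oocyte-enriched TFIID subunit, fell to 48.0 ± 6.80 CPM in Lsd1 KO, against 84.0 ± 18.3 CPM in Control (-0.81 ± 0.20, adjusted p = 0.0150). Its call was lost with any of Lsd1 KO replicates 1 and 3 and Control replicate 2 left out (adjusted p up to 0.0826). Tcf3, an E-protein and dimer partner of FIGLA, fell to 30.6 ± 1.92 CPM in Lsd1 KO, against 45.6 ± 3.41 CPM in Control (-0.57 ± 0.18, adjusted p = 0.0381), and kept the call in 4 of 15 other settings. Among the fits with 1 library left out, only that without Control replicate 3 kept it (adjusted p up to 0.125). Figla was at 23.5, 27.1 and 31.4 CPM in Lsd1 KO, against 48.5, 51.5 and 28.4 CPM in Control, where Control replicate 3 lay among the Lsd1 KO libraries (-0.65 ± 0.24, adjusted p = 0.0757). Without Control replicate 3 Figla passed at -0.88 (adjusted p = 0.0116), and with the length and GC correction at -0.97 (adjusted p = 0.0131). Nobox averaged 411 ± 8.27 CPM in Lsd1 KO, against 498 ± 24.4 CPM in Control (-0.27 ± 0.16, adjusted p = 0.241), and Lhx8 449 ± 62.8 CPM in Lsd1 KO, against 610.4 ± 92.8 CPM in Control (-0.44 ± 0.19, adjusted p = 0.107). Both passed with the length and GC correction (adjusted p = 0.0291 and 0.0242). Foxo3 averaged 156 ± 12.4 CPM in Lsd1 KO, against 245 ± 79.0 CPM in Control, where replicate 3 was the highest, at 334 CPM. Its log2 fold change was -0.65 ± 0.22, its adjusted p lay just above the threshold, and it passed in 5 of 15 other settings, among them that without Control replicate 1 (adjusted p = 0.0279). Without Control replicate 3 it was -0.38 (adjusted p = 0.145). Sohlh2 had 6.09 CPM in Lsd1 KO, against 6.56 CPM in Control (-0.11 ± 0.36, adjusted p = 0.859). Sohlh1 did not reach the filter, with none to 0.0898 CPM in Lsd1 KO libraries and none to 2.31 CPM in Control libraries.

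In 13 other maternal-effect genes, 1 was higher, 2 were lower and 10 did not pass, with a median log2 fold change of -0.20. These 3 calls among 13 genes are near the 21.3% of all genes. Dppa3, which protects maternal DNA methylation, rose to 2973 ± 645 CPM in Lsd1 KO, against 1892 ± 290 CPM in Control (0.65 ± 0.20, adjusted p = 0.0385). It kept the call in 9 of 15 other settings and lost it with Lsd1 KO replicate 1 or 3, or Control replicate 2 or 3, left out (adjusted p up to 0.170). Bnc1, the zinc-finger protein basonuclin, fell to 154 ± 6.58 CPM in Lsd1 KO, against 356 ± 34.6 CPM in Control (-1.21 ± 0.17, adjusted p = 5.91e-04). Ube2a, a ubiquitin-conjugating enzyme, fell to 80.6 ± 9.04 CPM in Lsd1 KO, against 134 ± 20.1 CPM in Control (-0.74 ± 0.18, adjusted p = 0.0133) and lost the call when Lsd1 KO replicate 1 or Control replicate 2 was left out (adjusted p up to 0.0828).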

How the data were processed

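Each sample's deposited file holds raw read counts per gene symbol, made by the authors, with no header. The values were whole numbers in all 6 files. Per the submitters' processing notes, the build was mm9 and the tools were TopHat2 2.0.7, HTSeq 0.5.3p9 and CASAVA 1.8.2. The sources used here do not give their options, the annotation or the strand setting of the counting. Per the labels' protocols, oocytes were lysed directly, and NuGEN Ovation amplification came before TruSeq library construction.

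The genotype label gave each sample its group. Genes were kept by filterByExpr (minimum count 10), which left 12935 of 23284, scaled by TMM and tested with the two-sided quasi-likelihood F test of edgeR 4.0.16 (R 4.3.3), with Benjamini-Hochberg adjustment and a threshold of 0.05. Standard errors came from the fold change and the test statistic. The series design calls the 3 samples per genotype biological replicates. Nothing says that they came from separate animals, so p-values measure the spread between these samples. No 2 libraries agreed within counting noise (chi-square per degree of freedom of 19.8 or more).

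The genes and lists were chosen with earlier results of these data known. Named were Kdm1a, the 6 genes, the partners and transcription regulators, called genes of the other 2 lists, the 3 genes of nearest pattern (mean of at least 10 CPM, no bare gene models) and the 2 most abundant markers of other cells. Lengths and GC content came from GENCODE M1 on NCBIM37, the assembly of mm9, and copies were sought with BLAST 2.17.0. The scripts were tested on simulated data. Alternatives were other scalings, DESeq2 1.42.0, limma-voom (limma 3.58.1), other filters, a replicate block, a loess correction for length and GC content (span 0.5, 96.7% of genes tested had both) and each library left out.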

Additional observations from a re-analysis of the deposited data

How the results depend on the processing

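The calls of the 6 genes (1 higher, none lower) and of the 8 partners (none higher, 1 lower) were the same counts in all 15 other settings. Zbed3 ran from 0.69, with the length and GC correction (adjusted p = 0.0331), to 1.14 without Control replicate 3. Over all genes, 1421 were higher and 1329 lower. The length and GC correction turned this balance to 1240 higher and 1583 lower, and upper-quartile scaling gave 1534 higher and 1188 lower. With 1 library left out, the number higher ran from 932 to 1466 and the number lower from 638 to 1346. The fewest higher calls came without Control replicate 1. Lower calls numbered 638 with Lsd1 KO replicate 1 left out, 727 with Lsd1 KO replicate 3 left out and 781 with Control replicate 2 left out. The cause was not tested. The summed share without Zbed3 was 0.831% in Lsd1 KO and 0.807% in Control. The replicate numbers are given by the titles alone. Same-numbered libraries had correlations of -0.03, 0.11 and -0.02 in their deviations from the group means. Other pairs had -0.10 to 0.13, and not every library correlated best with its own number. Values this weak cannot decide whether the numbers pair the samples. With replicate number as a block, 1270 genes were higher and 1098 lower, and Zbed3 passed at 0.98 (adjusted p = 0.0133). The 6 genes had 1615 to 197948 counts in each library, and the 3 samples per group limit the precision more than this depth.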
